A study of Saccharomyces cerevisiae with 8 samples.

Results

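The genes described here are 57 budding yeast genes, of which 56 encode enzymes of 9 groups of amino acid synthesis (arginine, histidine, lysine, branched-chain, aromatic, serine, threonine, proline and asparagine) and 1 is GCN4, the transcriptional activator of many of them. Each was taken from the array wherever a probe set (a group of short probes read as 1 value) carried its symbol and no other, and all 57 were found, among 7641 features of which 5580 were named genes. HIS3 was read by 2 probe sets and every other member by 1. The series measured total RNA of log-phase Saccharomyces cerevisiae on 8 one-colour arrays, 2 in each of 4 groups: sgs1 null cells with MMS, sgs1 null cells without treatment, wild-type cells with MMS and wild-type cells without treatment. SGS1 encodes a RecQ-family DNA helicase, and MMS (methyl methanesulfonate) is an alkylating agent that damages DNA. The labels state neither the strain background, marker genotype or form of the sgs1 null allele nor the dose and duration of MMS. They also do not say whether the paired arrays of a group stem from separate cultures, and the p-values therefore reflect the spread among these arrays alone, which may be technical.

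Starved yeast cells raise amino acid synthesis through general amino acid control. The kinase Gcn2 senses uncharged tRNA and phosphorylates the initiation factor eIF2, which lowers protein synthesis as a whole but lets ribosomes pass the short reading frames in the GCN4 leader and translate Gcn4. Gcn4 then activates genes of many synthesis pathways at once, alongside activators and feedback controls that act on single pathways. An array reads GCN4 mRNA and not Gcn4 protein.

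Values below are quantile-normalized intensities in arbitrary units, and changes are log2 differences between group means ± SE from 1 limma fit over all 8 arrays. A gene was called where the p-value adjusted over all 7641 features was under 0.05. Intensities of different probe sets cannot be set side by side. Their fold changes can be only with caution, since the probe sets of HIS3 gave different changes on the same arrays. In the deposited values the SGS1 probe set read 17.7 and 2.1 in sgs1 null cells with MMS and 1.7 and 2.9 without, against 339.1 and 577.3 in wild type with MMS and 444.2 and 777.3 without. All 4 null arrays lay below the floor of 97.1 given to dim values, and over both treatments SGS1 in the null strain was at least 5.50-fold lower (adjusted p = 0.0637). The median of 10 ribosomal RNA control probe sets was 153 on the second array of the sgs1 null with MMS and 325 on that of the wild type with MMS. It lay between 1223 and 7721 on the other 6 arrays, and its part in the results was not tested. The SD within groups on the log2 scale had a median of 0.28 over the members and 0.30 over all features.

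A minority of these genes was called for a change with MMS, and in both directions. Averaged over the strains, 7 members rose and 6 fell, and 44 did not pass the test, so that 22.8% of the members were called, against 15.6% of all features. The asparagine synthetases ASN1 and ASN2, the first lysine enzyme LYS20, the ornithine carbamoyltransferase ARG3, LYS5, HIS3 and HIS7 rose. The HIS3 value is the mean of 2 probe sets that disagreed. The later lysine enzymes LYS4 and LYS9, the branched-chain genes LEU1, ILV3 and BAT2, and the serine enzyme SER2 fell. By group, the called share was 100% of the asparagine, 50% of the lysine and 28.6% of the histidine genes. It was 27.3% of the branched-chain, 25% of the serine, 16.7% of the arginine and 0% of the aromatic, threonine and proline genes. These shares stand beside the 15.6% of all features, and the groups are small. The median change over the 57 members was 0.11, beside 0.00 over all features, with 34 members above 0 and 23 below, between -1.05 and 1.57.

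In wild type, 3 members rose and 3 fell (10.5% of the members, against 6.35% of all features), with a median of 0.04. ASN2 was the 1 member that rose in the sgs1 null and 0 fell, where 2.51% of all features were called, and the members' median was 0.17. At an unadjusted p under 0.05 limma gave 21 members in wild type (36.8%, against 24.6% of all features), 16 in the sgs1 null (28.1%, against 20.2%) and 24 on average (42.1%, against 31.7%). The sign of the change was the same in both strains for 44 of the 57 members (77.2%) and for 70.3% of all features. On the deposited scale, without normalization between arrays, the averaged split was 9 higher and 4 lower.

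The calls rested on few arrays. Counts and medians over all features in the smaller fits are not given here, so the members cannot be set against the whole array. Without either wild-type array of either treatment, 0 members were called in wild type, and without 1 array of the sgs1 null 2 or 3 were. For the sgs1 null, 0 were called once any 1 of the 8 arrays was left out. The averaged count was 4 and 5 without the second and the first wild-type MMS array, 5 and 8 without the second and the first untreated wild-type array, 7 and 6 without the second and the first sgs1 null MMS array, and 9 and 8 without the second and the first untreated sgs1 null array. With both second MMS arrays left out, 0 members were called in any comparison (15 at an unadjusted p under 0.05 on average). The members' median was then -0.05 averaged over strains and -0.09 in wild type. Without the median over all features in that fit, these values do not show a reversal for the members.

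**Figure D1:**
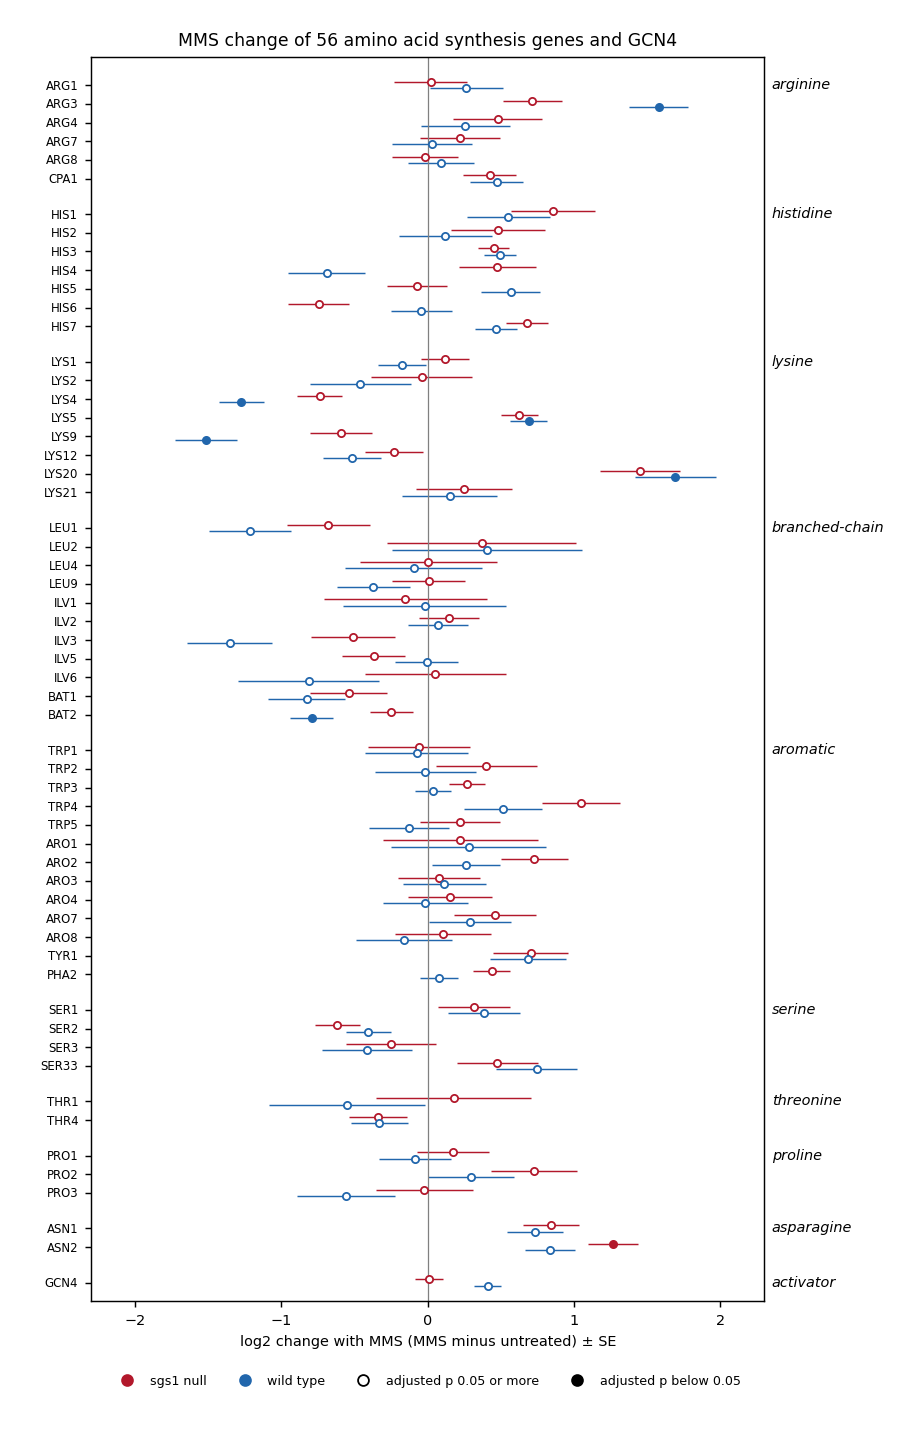
Log2 change with MMS of each of the 57 members in the sgs1 null and in wild type, with bars of 1 SE and filled points where the adjusted p was under 0.05. The values run between -1.51 and 1.69 in wild type and between -0.74 and 1.45 in the sgs1 null, and most points are open.

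Both asparagine synthetases, which convert aspartate to asparagine and are paralogues, rose with MMS. ASN1 read 11748 and 10148 with MMS in the sgs1 null, against 7148 and 5192 untreated, and in wild type 11916 and 11372 with MMS, against 7605 and 6454 untreated. All 4 MMS arrays stood above all 4 untreated arrays, and the averaged change was 0.79 ± 0.13, or 1.73-fold (adjusted p = 0.0243). ASN2 read 5740 and 6688 with MMS in the sgs1 null, against 2636 and 2511 untreated, and in wild type 6879 and 9123 with MMS, against 4168 and 4713 untreated. The arrays again did not overlap, and ASN2 rose 2.07-fold on average (1.05 ± 0.12, adjusted p = 0.01). It rose 2.41-fold in the sgs1 null alone (1.27 ± 0.17, adjusted p = 0.0387), while in wild type the change was 0.84 ± 0.17 (adjusted p = 0.0589). The averaged ASN1 call held without either untreated sgs1 null array and was lost without each of the 6 others, with adjusted p up to 0.0838 and changes of 0.67 to 0.91. The sgs1 null call of ASN2 was lost without any 1 of the 8 arrays (adjusted p up to 0.156). Cross-hybridization between the paralogues was not tested.

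Of the 6 arginine genes, 1 rose, 0 fell and the median was 0.26. ARG3, which makes citrulline out of ornithine, read 576 and 458 with MMS in the sgs1 null, against 275 and 356 untreated, and in wild type 564 and 713 with MMS, against 212 and 212 untreated. Within each strain both MMS arrays stood above both untreated arrays, and the lowest values were those of untreated wild type. ARG3 rose 2.99-fold in wild type (1.58 ± 0.20, adjusted p = 0.0245) and 2.21-fold on average (1.15 ± 0.14, adjusted p = 0.0118). In the sgs1 null the change was 0.71 ± 0.20 (adjusted p = 0.144), and the difference between the strains in this change was -0.87 ± 0.28 (adjusted p = 1). CPA1, a subunit of the carbamoyl phosphate synthetase that feeds this step, read 5714 and 7344 with MMS in the sgs1 null, against 5250 and 4440 untreated, and in wild type 5386 and 5973 with MMS, against 4488 and 3723 untreated. Its MMS arrays also stood above the untreated ones, with a change of 0.45 ± 0.13 that did not pass (adjusted p = 0.0809). The other 4 arginine genes changed by between 0.04 (ARG8) and 0.37 (ARG4) on average.

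The lysine pathway held the largest averaged changes of the members in both directions, with 2 genes higher, 2 lower and 4 not passing. LYS20 encodes a homocitrate synthase, the entry to the pathway, and read 8462 and 11663 with MMS in the sgs1 null, against 3213 and 4110 untreated. In wild type it read 9286 and 10850 with MMS, against 2553 and 3779 untreated. MMS arrays were well above untreated ones in both strains, and LYS20 rose 3.23-fold in wild type (1.69 ± 0.27, adjusted p = 0.0367) and 2.97-fold on average (1.57 ± 0.19, adjusted p = 0.0118). In the sgs1 null alone the change was 1.45 ± 0.27 (adjusted p = 0.0701). Its paralogue LYS21, the other homocitrate synthase, read 2605 and 3151 with MMS in the sgs1 null, against 2013 and 2891 untreated, and in wild type 2871 and 3735 with MMS, against 2292 and 3804 untreated. The LYS21 groups overlapped, with an averaged change of 0.20 ± 0.23 (adjusted p = 0.625), and 1 probe set that carries both symbols was not used.

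LYS4 and LYS9, enzymes that act after homocitrate synthase, moved the other way. LYS4, homoaconitase, read 1067 and 1234 with MMS in the sgs1 null, against 1681 and 2174 untreated, and in wild type 791 and 771 with MMS, against 1947 and 1828 untreated. All MMS arrays lay below all untreated arrays, and LYS4 fell 2.42-fold in wild type (-1.27 ± 0.15, adjusted p = 0.0217) and 2.01-fold on average (-1.0 ± 0.11, adjusted p = 0.00884). LYS9, a saccharopine dehydrogenase of the later part of the pathway, read 906 and 1064 with MMS in the sgs1 null, against 1720 and 1280 untreated. In wild type LYS9 read 696 and 647 with MMS, against 2197 and 1665 untreated. The groups did not overlap, and LYS9 fell 2.85-fold in wild type (-1.51 ± 0.21, adjusted p = 0.0294) and 2.08-fold on average (-1.05 ± 0.15, adjusted p = 0.0162). In the sgs1 null the changes were -0.74 ± 0.15 for LYS4 (adjusted p = 0.0833) and -0.60 ± 0.21 for LYS9 (adjusted p = 0.215).

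LYS5, which attaches the phosphopantetheine group that the reductase Lys2 needs, read 2290 and 2134 with MMS in the sgs1 null, against 1510 and 1357 untreated, and in wild type 1942 and 2383 with MMS, against 1352 and 1316 untreated. The values within each group were close, and LYS5 rose 1.58-fold on average (0.66 ± 0.09, adjusted p = 0.015). It also rose 1.61-fold in wild type (0.69 ± 0.13, adjusted p = 0.0489), but that call held under 2 of 10 other settings and was lost without any 1 of the 8 arrays, with adjusted p up to 0.193. The remaining lysine genes did not pass: LYS12, homoisocitrate dehydrogenase, changed by -0.37 ± 0.14 on average, LYS2 by -0.25 ± 0.24 and LYS1, the last enzyme, by -0.03 ± 0.12. Without the second wild-type MMS array the averaged LYS20 change was 1.54 and missed the threshold (adjusted p = 0.0523). LYS5 missed it without the first sgs1 null MMS array (adjusted p = 0.0545) or the first or second untreated wild-type array (0.0538 and 0.0599), with changes of 0.63 to 0.66. LYS9 missed it without the first sgs1 null MMS array (adjusted p = 0.0569) or the first or second wild-type MMS array (0.0573 and 0.062), with changes of -1.07 to -1.0. ARG3, ASN2 and LYS4 kept their averaged call without any 1 array, at adjusted p up to 0.0494.

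**Figure D2:**
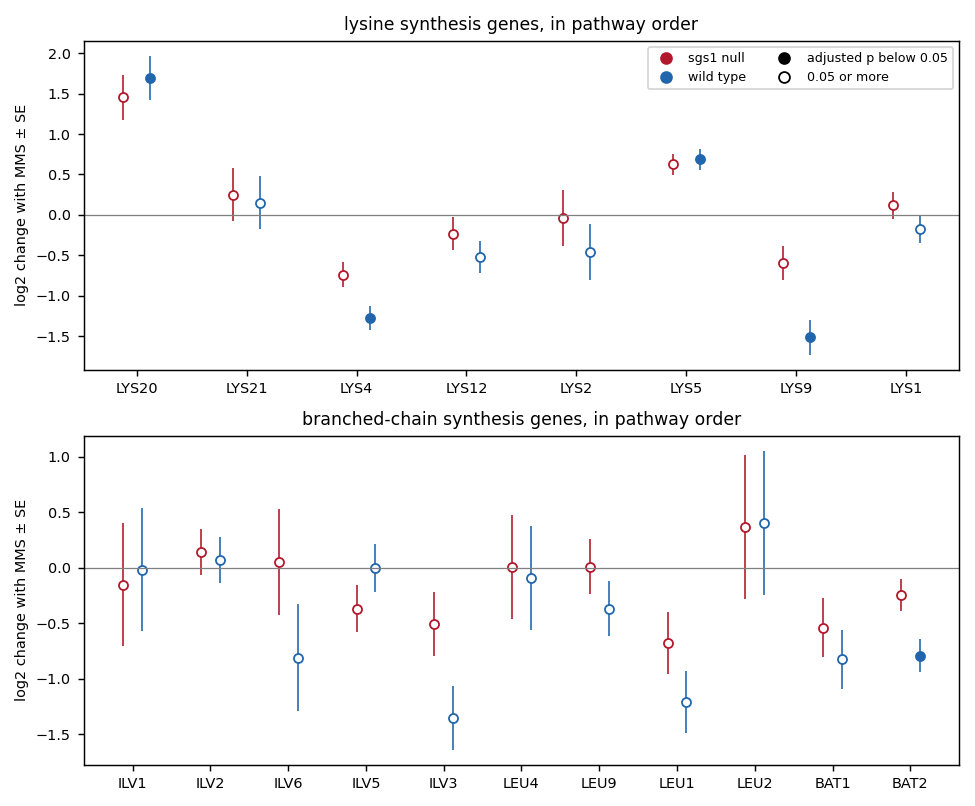
Log2 change with MMS, with bars of 1 SE, of the lysine genes and the branched-chain genes in the order of their pathway steps, for the sgs1 null and for wild type. LYS20 sits at 1.45 in the sgs1 null and 1.69 in wild type, whereas LYS4 and LYS9 lie below 0 in both strains, and the LEU2 points rest on floored values.

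Among the 11 branched-chain genes 3 fell, 0 rose and 8 failed the test. Their median was -0.19, and 9 of the 11 lay below 0. LEU1, the isopropylmalate isomerase of leucine synthesis, read 1704 and 1369 with MMS in the sgs1 null, against 2101 and 2845 untreated, and in wild type 1031 and 1226 with MMS, against 2095 and 3240 untreated. No MMS array reached an untreated one, and LEU1 fell 1.93-fold on average (-0.95 ± 0.20, adjusted p = 0.0398). ILV3, the dihydroxyacid dehydratase shared by isoleucine and valine synthesis, read 2456 and 2919 with MMS in the sgs1 null, against 4036 and 3606 untreated, and in wild type 1892 and 2551 with MMS, against 4368 and 7206 untreated. Its groups did not overlap either, although the untreated wild-type arrays lay far apart, and it fell 1.91-fold on average (-0.93 ± 0.20, adjusted p = 0.0435).

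BAT2, the cytosolic branched-chain aminotransferase, read 3768 and 4454 with MMS in the sgs1 null, against 5215 and 4545 untreated, and in wild type 3074 and 3705 with MMS, against 5830 and 5863 untreated. The gap between treatments was narrow in the sgs1 null and wide in wild type. BAT2 fell 1.73-fold in wild type (-0.79 ± 0.15, adjusted p = 0.0473) and 1.43-fold on average (-0.52 ± 0.10, adjusted p = 0.0339), and lost both calls without any 1 of the 8 arrays, at adjusted p up to 0.184 in wild type and 0.103 on average. BAT1, its mitochondrial paralogue, changed by -0.68 ± 0.19 on average (adjusted p = 0.073), with MMS arrays below untreated ones. Apart from LEU2, which had values below the floor, the other 6 branched-chain genes changed by between -0.38 (ILV6) and 0.11 (ILV2). None of LEU1, ILV3 and BAT2 passed in the sgs1 null alone, with changes of -0.68 ± 0.28, -0.51 ± 0.29 and -0.25 ± 0.15. In wild type alone LEU1 (-1.21 ± 0.28, adjusted p = 0.0744) and ILV3 (-1.35) did not pass either. The averaged LEU1 and ILV3 calls held without the first untreated wild-type array and were lost without each of the 7 others, where the adjusted p reached 0.113 for LEU1 and 0.122 for ILV3. Their changes then lay between -1.11 and -0.74. The ILV3 call held under 5 of 9 other settings and was also lost with median centring (adjusted p = 0.0503), on the deposited scale (0.0702) and with a higher floor (0.0574). The wild-type BAT2 call held under 4 of 10.

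Of the 7 histidine genes, 2 rose, 0 fell and the median was 0.30. HIS7, the glutamine amidotransferase of the pathway, read 2214 and 2824 with MMS in the sgs1 null, against 1579 and 1541 untreated, and in wild type 2429 and 2768 with MMS, against 1830 and 1917 untreated. The MMS arrays were all above the untreated ones, and HIS7 rose 1.49-fold on average (0.57 ± 0.10, adjusted p = 0.0264). HIS3, the imidazoleglycerol-phosphate dehydratase, averaged over its 2 probe sets, read 1133 and 1317 with MMS in the sgs1 null, against 847 and 943 untreated, and in wild type 1334 and 1339 with MMS, against 944 and 954 untreated. In this mean the MMS arrays were again the higher ones. HIS3 rose 1.39-fold on average (0.47 ± 0.08, adjusted p = 0.0207), but the probe sets disagreed: one changed by 0.91 ± 0.17 (adjusted p = 0.0311) and the other by 0.04 ± 0.18 (adjusted p = 0.936). In wild type the former changed by 1.30 ± 0.24 and the latter by -0.31 ± 0.26. The wild-type MMS arrays of the latter lay below its untreated ones, so the averaged rise of HIS3 rests on the former probe set. In the sgs1 null both probe sets changed upward, by 0.52 ± 0.24 and 0.39 ± 0.26, and neither passed. HIS1, the first enzyme, read 6092 and 6523 with MMS in the sgs1 null, against 4350 and 2791 untreated, and in wild type 5963 and 6065 with MMS, against 5040 and 3344 untreated. Its arrays did not overlap, yet the untreated pairs were spread and the change of 0.70 ± 0.20 did not pass (adjusted p = 0.0819). The other 4 histidine genes changed by between -0.39 (HIS6) and 0.30 (HIS2) on average. Leaving out 1 array at a time ended the averaged HIS7 call except for the 2 sgs1 null MMS arrays, and the HIS3 call except for the first sgs1 null MMS array and the second untreated sgs1 null array. The HIS3 call held under 5 of 9 other settings. In 1 of these 5 each probe set was tested singly, and HIS3 took only the probe set with the smaller p. With 1 array left out the adjusted p reached 0.0829 for HIS7 and 0.0718 for HIS3, with changes of at least 0.40.

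Among the 13 aromatic genes 0 passed in either direction, with 4 at an unadjusted p under 0.05 and a median of 0.19, and 11 of the 13 lay above 0. TRP4, the phosphoribosyltransferase of tryptophan synthesis, read 948 and 1281 with MMS in the sgs1 null, against 617 and 462 untreated, and in wild type 1007 and 1314 with MMS, against 703 and 924 untreated. The MMS arrays were above the untreated ones, with a change of 0.78 ± 0.19 (adjusted p = 0.0546). TYR1, prephenate dehydrogenase, read 2668 and 1915 with MMS in the sgs1 null, against 1424 and 1351 untreated, and in wild type 2239 and 1583 with MMS, against 1329 and 1031 untreated. Its groups were likewise apart, with a change of 0.69 ± 0.18 (adjusted p = 0.0658). The other 11 aromatic genes changed by between -0.07 (TRP1) and 0.50 (ARO2).

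In the serine group 1 of 4 genes fell. SER2, phosphoserine phosphatase, read 1062 and 1179 with MMS in the sgs1 null, against 1773 and 1661 untreated, and in wild type 1274 and 1179 with MMS, against 1419 and 1854 untreated. MMS arrays lay below untreated ones, and SER2 fell 1.42-fold (-0.51 ± 0.11, adjusted p = 0.0407), a call that held under 3 of 9 other settings. Leaving out 1 array at a time ended it except for the first untreated wild-type array, with adjusted p up to 0.119. SER33, 1 of a pair of phosphoglycerate dehydrogenases, read 2542 and 2349 with MMS in the sgs1 null, against 1343 and 2299 untreated, and in wild type 1864 and 1780 with MMS, against 975 and 1212 untreated. Within each strain the MMS arrays were higher, but the change of 0.61 ± 0.20 did not pass (adjusted p = 0.104).

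Neither threonine gene and none of the 3 proline genes passed on average by limma, and 0 of these 5 did at an unadjusted p under 0.05. THR4, threonine synthase, read 2963 and 2832 with MMS in the sgs1 null, against 3034 and 4437 untreated, and in wild type 2848 and 2983 with MMS, against 3440 and 3902 untreated, a change of -0.34 ± 0.14. THR1, homoserine kinase, ran between 2047 and 4556 on the MMS arrays and between 2485 and 5796 on the untreated ones (-0.19 ± 0.37). Those groups overlapped widely. PRO2, glutamyl phosphate reductase, read 3703 and 5007 with MMS in the sgs1 null, against 2395 and 2823 untreated, and in wild type 4082 and 6403 with MMS, against 3628 and 4774 untreated (0.51 ± 0.21, adjusted p = 0.172). PRO3, the last proline enzyme, read 3395 and 5496 with MMS in the sgs1 null, against 4839 and 3977 untreated, and in wild type 3894 and 5697 with MMS, against 5949 and 8088 untreated (-0.29 ± 0.24). The sgs1 null groups overlapped and the wild-type groups did not.

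**Figure D3:**
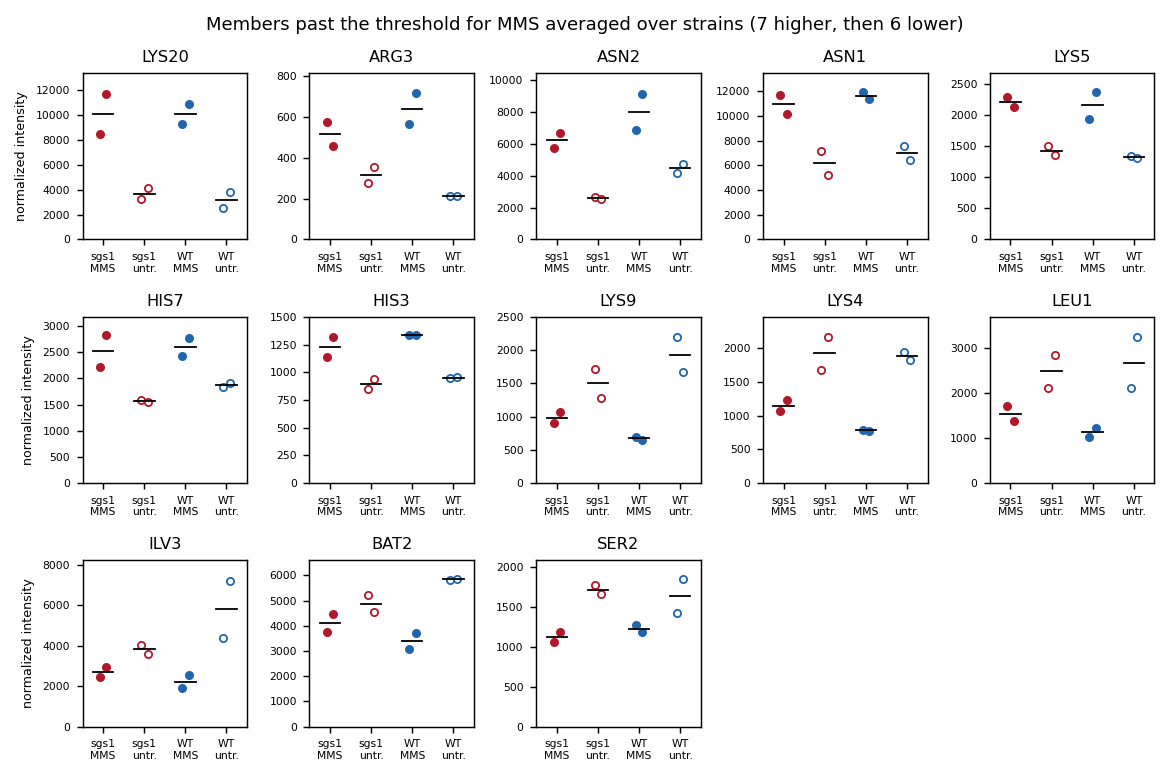
Normalized intensity per array, on linear axes that start at 0, of the 13 members called for MMS averaged over the strains, with points for the 2 arrays of each group (filled with MMS, open untreated) and horizontal lines for group means. In each panel the 4 MMS arrays lie on 1 side of the 4 untreated arrays. HIS3 is drawn as the mean of its 2 probe sets, which disagreed.

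GCN4 itself varied least of all members within groups (SD 0.08 on the log2 scale). It read 11797 and 11936 with MMS in the sgs1 null, against 11536 and 12047 untreated, and in wild type 11190 and 12848 with MMS, against 8906 and 9156 untreated. Untreated wild type was thus the low group, while the other 3 groups overlapped. The change with MMS was 0.41 ± 0.09 in wild type (1.33-fold, adjusted p = 0.0726), 0.01 ± 0.09 in the sgs1 null (adjusted p = 1) and 0.21 ± 0.07 on average (adjusted p = 0.102). The difference of the sgs1 null to wild type was 0.38 ± 0.09 untreated (adjusted p = 0.33) and -0.01 ± 0.09 with MMS. The difference between the strains in the MMS change was -0.40 ± 0.13 (adjusted p = 1). None of these passed.

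No member differed between the strains past the threshold. Averaged over treatments the same test did not call SGS1 itself, so a missing call does not show that the strains were alike. Limma called 0 of the 57 untreated, where 0.0262% of all features were called, 0 with MMS, where 0.0131% were, and 0 averaged over treatments, where 0.157% were. An unadjusted p under 0.05 was found for 4 members untreated (7.02%, against 10.5% of all features), 5 with MMS (8.77%, against 6.18%) and 9 averaged (15.8%, against 11.2%). The median difference of the sgs1 null to wild type was -0.19 untreated, -0.02 with MMS and -0.10 averaged. Members whose strain groups did not overlap numbered 26 of 57 untreated and 17 with MMS, while 39.0% and 25.5% of all features had such groups.

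The largest strain gap was that of HIS4, which encodes a protein with 3 activities of histidine synthesis. HIS4 read 4533 and 2935 in the untreated sgs1 null, against 8584 and 10674 in untreated wild type, and with MMS 5154 and 4980 in the sgs1 null, against 5181 and 6798 in wild type. The untreated groups were well apart and the MMS groups nearly met. The untreated difference was -1.39 ± 0.26, or 2.62-fold lower in the sgs1 null (adjusted p = 0.232), and the difference with MMS was -0.23 ± 0.26. ILV6, the regulatory subunit of acetolactate synthase, read 2367 and 2057 in the untreated sgs1 null, against 3495 and 5758 in untreated wild type (-1.02 ± 0.48, adjusted p = 0.553). With MMS ILV6 read 1570 and 3330 in the sgs1 null, against 1981 and 3298 in wild type, and the groups overlapped. ASN2 was lower in both untreated sgs1 null arrays than in untreated wild type, by -0.78 ± 0.17 (adjusted p = 0.291). HIS4 and ARG1 were the 2 of 57 members whose 4 sgs1 null arrays all lay on 1 side of the 4 wild-type arrays, here below them. Such a split was found for 3.23% of all features, so 2 members is near that share. ARG1, argininosuccinate synthetase, differed by -0.57 ± 0.18 (adjusted p = 0.359).

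**Figure D4:**
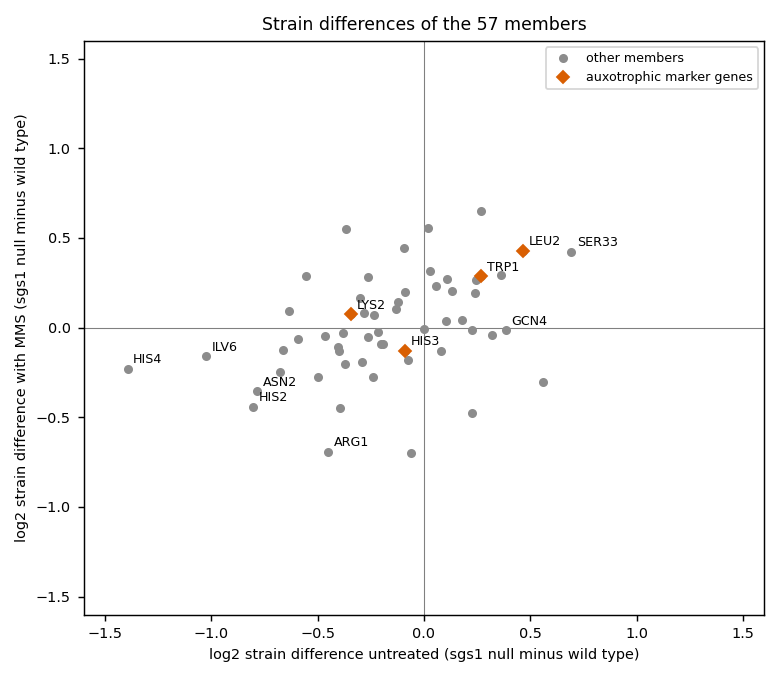
Log2 difference of the sgs1 null to wild type for each member, untreated on one axis and with MMS on the other. HIS4 lies farthest out at -1.39 untreated and -0.23 with MMS, and 0 members passed in either comparison.

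For the effect of strain on the MMS change, limma called 0 of the 57 members and 0% of the 7641 features (0 of them), with 5 members (8.77%) and 4.75% of all features at an unadjusted p under 0.05. The members were HIS4 (1.16 ± 0.37), LYS9 (0.92 ± 0.30), ARG3 (-0.87 ± 0.28), BAT2 (0.54 ± 0.21) and GCN4 (-0.40 ± 0.13), where a positive value means a higher change in the sgs1 null. The MMS changes of HIS4 were 0.47 ± 0.26 in the sgs1 null and -0.69 ± 0.26 in wild type. That calls of LYS4, LYS9, LYS5, LYS20, ARG3 and BAT2 were made in wild type and not in the sgs1 null does not show that the strains differed.

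HIS3, LEU2, LYS2 and TRP1 are genes that laboratory yeast strains often carry as mutant alleles for selection, and a strain made with such a marker can differ from its parent at that gene. None showed a strain difference that passed, in a test that averaged over treatments did not call SGS1 either. A missing call at a marker or its neighbours therefore does not show that the strains match there. HIS3 differed by -0.11 ± 0.08 averaged over treatments (adjusted p = 0.689), but this is the mean of 2 probe sets that disagreed. Untreated, one differed by -0.68 ± 0.26 and the other by 0.51 ± 0.24, and averaged over treatments by -0.33 ± 0.18 and 0.12 ± 0.17, and neither passed. LYS2, aminoadipate reductase, read 899 and 1074 in the sgs1 null with MMS, against 792 and 1097 in wild type with MMS, and untreated 1033 and 989 in the sgs1 null, against 930 and 1769 in wild type (-0.13 ± 0.24, adjusted p = 0.909). The groups overlapped, and the LYS2 difference was 0.10 once the second of the untreated wild-type arrays was left out. TRP1, phosphoribosylanthranilate isomerase, read 3825 and 5885 in the sgs1 null with MMS, against 4513 and 3356 in wild type with MMS, and untreated 6475 and 3770 in the sgs1 null, against 4094 and 4105 in wild type (0.28 ± 0.25, adjusted p = 0.774).

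LEU2, isopropylmalate dehydrogenase, was the 1 member with values below the floor, on 4 of the 8 arrays. As deposited it read 313 and 69.7 in the sgs1 null with MMS, against 163.8 and 82 in wild type with MMS, and untreated 58.3 and 214.2 in the sgs1 null, against 106.2 and 69.9 in wild type. The arrays of 1 group differed more than the groups did, and its SD within groups was 0.72 on the log2 scale, the widest of the members (0.45 ± 0.46 for the strain difference, adjusted p = 0.803, a value that rests on the floor).

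Of 8 marker genes listed, 6 had a probe set of their own, the other 2 of these being ADE2, of purine synthesis, and CAN1, the arginine permease. ADE2 read 3367 and 2664 in the untreated sgs1 null, against 5505 and 5567 in untreated wild type, and with MMS 3579 and 5386 in the sgs1 null, against 3828 and 5775 in wild type. Its untreated groups were apart and its MMS groups overlapped, with differences of -0.89 ± 0.29 (adjusted p = 0.433; the 1 marker at an unadjusted p under 0.05) and -0.10 ± 0.29. The CAN1 difference was 0.12 ± 0.28 averaged over treatments. Insertions or deletions at a marker can also touch the genes beside it, so the neighbours in the RefSeq gene table of assembly R64 were examined. Of 16 neighbours 14 were measured and 0 passed a strain comparison in limma (2 at an unadjusted p under 0.05 untreated, 2 with MMS and 4 averaged). The differences ran between -0.54 and 1.20 averaged over treatments, the highest being TKL2, a transketolase gene beside LYS2, with 1.17 ± 0.25 untreated (adjusted p = 0.285) and 1.24 ± 0.25 with MMS (adjusted p = 0.418).

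**Figure D5:**
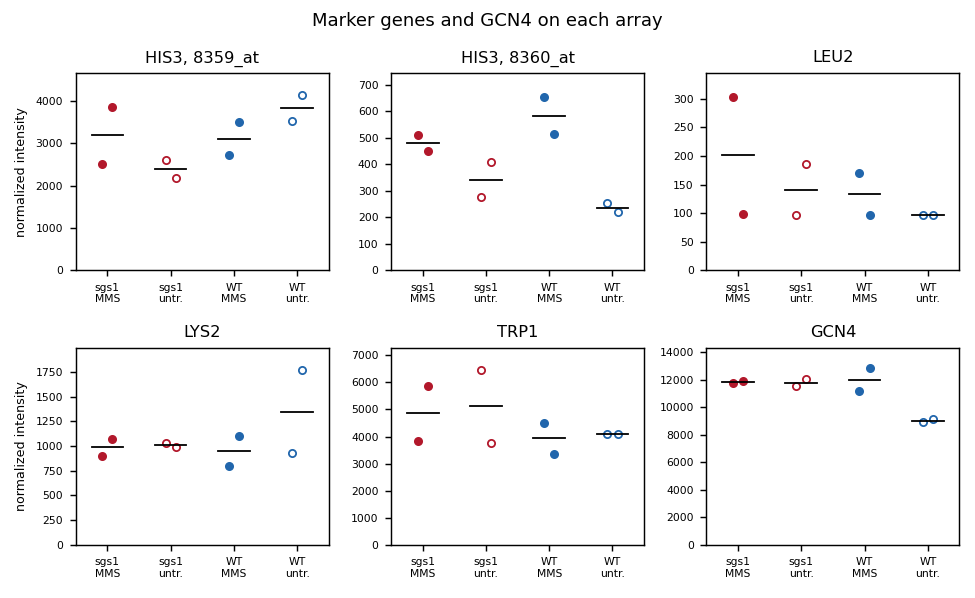
Normalized intensity per array, with horizontal lines for group means, on linear axes that start at 0, of HIS3 by its 2 probe sets, LEU2, LYS2, TRP1 and GCN4. LEU2 sits at or near the floor of 97.1 on most arrays, and GCN4 is lowest on the untreated wild-type arrays at 8906 and 9156.

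Other genes of general amino acid control and of amino acid metabolism moved in part. The general amino acid control list had 15 genes with a median of 0.39. With MMS on average 3 of them rose, 1 fell and 11 did not pass (26.7% called, against 15.6% of all features). GCN2, the kinase, rose 1.43-fold (0.52 ± 0.08, adjusted p = 0.0183). GCN20, a partner of Gcn1 on ribosomes, rose by 0.67 ± 0.09 (adjusted p = 0.0149), and GCD1, a subunit of the exchange factor that eIF2 phosphorylation inhibits, by 0.91 ± 0.15 (adjusted p = 0.0211). GCN1, needed to activate Gcn2, fell by 0.55 ± 0.10 over 7 probe sets (adjusted p = 0.0279), of which 4 had a value below the floor.

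Among 14 other synthesis genes measured, 1 rose and 2 fell on average (21.4% called, against 15.6% of all features). GLY1, threonine aldolase, read 3596 and 5077 with MMS in the sgs1 null, against 1957 and 2913 untreated, and in wild type 5555 and 6330 with MMS, against 2474 and 1916 untreated (1.14 ± 0.20, adjusted p = 0.0252). HOM2, aspartate semialdehyde dehydrogenase, fell by 0.88 ± 0.10 (adjusted p = 0.01), and GLT1, glutamate synthase, fell by 1.14 ± 0.15 (adjusted p = 0.0136). HOM2 also fell in wild type, by 1.06 (adjusted p = 0.0254), and so did GLT1, by 1.49 (adjusted p = 0.0302). Of 8 regulators of single pathways 0 passed (1 at an unadjusted p under 0.05) and of 5 further Gcn4 targets 0 passed (0 unadjusted).

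Of 10 breakdown genes 1 rose and 1 fell with MMS on average (20% called, against 15.6% of all features). PUT3, the activator of proline use, rose by 1.07 ± 0.16 (adjusted p = 0.0173). PUT1, proline oxidase, read 1154 and 1092 with MMS in the sgs1 null, against 2078 and 2161 untreated, and in wild type 557 and 501 with MMS, against 1153 and 1016 untreated. PUT1 fell with MMS in the sgs1 null (by 0.92, adjusted p = 0.0296) and in wild type (by 1.03, adjusted p = 0.0155). Its level was also higher in the sgs1 null than in wild type at both treatments, by 1.03 ± 0.07 averaged (adjusted p = 0.0323).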

How the data were processed

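One-colour array values of 8 total RNA samples were used, 2 per group. The authors deposited 1 linear intensity per probe set and array. Which array software, scaling and background correction they used is not given in the sources used here, and scale and centring stay unknown. Deposited array medians ran between 775 and 972, so the arrays were quantile normalized after 32 control probe sets and 1 with a missing value were left out of 8363. Values under the 10th percentile of positive values (97.1) were raised to it, and log2 was taken. Probe sets of 1 gene were averaged, which gave 7641 features. Names came from the platform annotation: 6269 probe sets had 1 symbol, 309 several and 1752 none, and those with several or none were tested but not named. RefSeq R64 changed 0 symbols.

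Group means were fitted over the 8 arrays in R 4.3.3 by limma 3.58.1, using lmFit, contrasts.fit and eBayes with 4 residual degrees of freedom. Tests were two-sided and adjusted by Benjamini-Hochberg over all features at 0.05, for 7 comparisons. The procedure was tested on simulated data. The arrays carry no counts, so their number limits the precision. Members, lists and tests were chosen with earlier results of these data known. Values per array were given for members called, GCN4, marker genes among the members, strain gaps of at least 1 (log2) without overlap, and the 2 members of each group with the largest averaged change. Other lists gave at most 4 called genes. LYS21, LYS12, LYS1, BAT1, ADE2, CAN1 and the members named from an unadjusted p were named beyond this rule, after their values were seen.

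The second arrays carry a repeat mark. Deviations of same-marked arrays from their group means correlated at 0.67, 0.54, 0.36, 0.20, -0.06 and -0.08 over 6 pairs of groups. The main fit left the mark out, and a fit with the mark as a block was run as an alternative. Whether same-marked arrays share an effect was not tested. Alternatives were other scalings, floors and filters, a trended robust fit, the mark as a block, the arrays compared alone and 1 array left out. Each probe set was also tested singly, and a gene then took its probe set with the smallest p. Leaving out both second MMS arrays was added after seeing the data.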

Additional observations from a re-analysis of the deposited data

How the results depend on the processing

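The counts of called members for MMS depended on the fit. Counts over all features under these settings are not given here. In wild type the main count of 6 became 10 with the mark as a replicate block (6 higher, 4 lower), 0 with the 4 arrays compared alone, 0 without both second MMS arrays, and 0 to 3 when 1 array was left out. In the sgs1 null the count of 1 became 0 with no floor, 2 without the dimmest features, 3 with the replicate block, 0 with the arrays compared alone, 0 without both second MMS arrays, and 0 to 0 when 1 array was left out. Averaged over strains the 13 became 0 without both second MMS arrays and 4 to 9 when 1 array was left out, and 17 with the replicate block. The causes were not tested. The reduced fits hold fewer arrays, and the part of that number was not separated from that of the particular arrays left out. Strain and interaction counts were 0 under all settings run. With median centring the averaged split was 6 higher and 4 lower. Of 187 values of the 20 gene calls under other settings 132 stayed past the threshold, 55 did not and 0 turned sign. Of 160 with 1 array left out these were 60, 100 and 0. The 6 averaged calls of ARG3, ASN2, LYS4, LYS5, LYS9 and LYS20 passed under all 8 planned settings other than leaving out arrays. Testing probe sets singly, 1 of these 8, left the log2 changes of these genes unchanged, since each has 1 probe set. Only their SE and adjusted p were computed anew, over all probe sets. The LYS2 strain difference of -0.13 turned to 0.0989 without the second of the untreated wild-type arrays, and 1 array left out gave -0.363 to 0.0989. Fits on the compared arrays alone were not run for the averages and the interaction, which use all arrays. With 2 arrays per group and dim values floored, small changes and changes of LEU2 could not be resolved. Averaged over treatments, even the strain difference of SGS1 missed the threshold.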

Other observations

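LEU1, ILV3 and LYS4 encode enzymes that carry iron-sulfur clusters, as does GLT1, glutamate synthase, which is no member. All 4 fell with MMS averaged over the strains, by 0.95, 0.93, 1.00 and 1.14 on the log2 scale, where the changes were -0.68, -0.51, -0.74 and -0.80 in the sgs1 null, 0 of them called, and -1.21, -1.35, -1.27 and -1.49 in wild type. Of the wild-type changes, those of LYS4 and GLT1 were called and those of LEU1 and ILV3 were not. The group was put together after its values were seen, so it has no test.

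The repeat mark went with the level of the members about as often as with that of all features. The second array differed from the first in 1 direction in all 4 groups for 18 of the 57 members (31.6%) and for 29.8% of all features. It was the higher one in all 4 groups for 11 of the 57 members (19.3%, against 14.8% of all features) and the lower one in all 4 for 7 (12.3%, against 15.1%). ILV1, threonine deaminase, had a wide spread within groups (SD 0.62 on the log2 scale), as had LEU2 (0.72).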
